A study of Mus musculus with 30 samples.

Results

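Macrophage genes were followed as a list of 36 genes in the abdominal aorta of mice infused with angiotensin II, with and without 4 antihypertensive compounds. The members were listed by name: general markers of the lineage, receptors and their adaptors, complement C1q, markers of resident macrophages, receptors of recruited monocytes, and markers of lipid-laden or injury-associated macrophages. Of the 36 members, 35 were among the 14379 genes that could be summed over transcripts listed for all groups, and all 35 were among the 13223 genes tested. The scavenger receptor gene Marco was left out of the fits, because its transcript was not listed for AngII+GAS.

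Each group held 5 libraries from wild-type C57BL/6 mice, 30 libraries in all. Control mice received saline for 28 days. AngII mice received angiotensin II, a peptide hormone that acts on arteries to raise blood pressure, at 500 ng per kg per minute for 28 days. The other groups received the same infusion with ethoxysanguinarine, a plant alkaloid (AngII+ETH), baicalin, a flavonoid glucuronide (AngII+BAI), or gastrodin, a phenolic glucoside (AngII+GAS), each at 5 mg per kg per day, or with valsartan, a blocker of the type 1 angiotensin receptor (AngII+VAL), at 10.4 mg per kg per day. The labels give no age or sex, and do not say whether each library is 1 animal, so p-values measure the spread between these 30 libraries, which may be technical. Replicate numbers, given in the order of deposit, serve only as names.

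Macrophages of the arterial wall lie mainly in the adventitia. Resident cells are seeded early in life or renewed locally, depend on the receptor Csf1r, and carry scavenger and endocytic receptors such as Mrc1, Cd163, Folr2 and Lyve1. Monocytes recruited from blood carry Ccr2, the receptor for the chemokine Ccl2, and after tissue injury such cells can take on a state marked by Trem2, Gpnmb, Spp1 and Lgals3. Angiotensin II infusion is known to bring monocytes into the aortic wall.

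Values are FPKM, fragments scaled to transcript length and library size, so levels can be compared between genes. A library rested on 69.8 to 80.8 megareads, as worked out from the steps between low values, and for a 2 kb transcript the floor of 3 reads was 0.0186 to 0.0215 FPKM, which covers counting error only. Smooth muscle was present in every library: its gene Acta2 lay between 869 and 7433 FPKM in the 30 libraries. Markers of other tissues varied widely: 5 skeletal muscle genes summed to 3.82 to 3049 FPKM and 7 neuron genes to 2.44 to 714. The sum of 5 brown fat genes ran from 420 to 4906 FPKM. The part of these tissues in the macrophage values was not tested. Of the 35 members, 28 reached 1 FPKM in all 30 libraries. The libraries AngII+BAI 3 and AngII+BAI 5 stood apart from the other 28 in these genes, and the AngII+BAI results that rest on them are given with and without them. Both also stood apart in smooth muscle genes, 6 of which summed to 1338 and 2507 FPKM in them against 3206 to 12120 in the other libraries. The sum of 4 neutrophil genes was 478 FPKM in AngII+BAI 3, above all other libraries, and 34.4 in AngII+BAI 5, where the other 28 ran from 0.847 to 47.2. The sum of 6 B and plasma cell genes was 548 and 1039 FPKM, above most but not all of the other 28 (3.67 to 2631). In bulk tissue, more cells of a type and more RNA per cell cannot be told apart.

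Upstream sequences are shown for 4 members whose levels parted in those libraries: Cd68, Ctss and Trem2, which were far above the other libraries, and Cd163, which was not. They are the 250 bases before the start site in RefSeq, build GRCm38.p6, written 5′ to 3′ on the gene's strand. Capitals mark the letters GAGGAA, or TTCCTC on the other strand, the core of the box bound by PU.1, the myeloid transcription factor that the member Spi1 encodes. The Cd68 window is chr11:69666171-69666420 on the minus strand, the Ctss window chr3:95526536-95526785, the Trem2 window chr17:48346151-48346400 and the Cd163 window chr6:124304401-124304650, all on the plus strand.
Cd68: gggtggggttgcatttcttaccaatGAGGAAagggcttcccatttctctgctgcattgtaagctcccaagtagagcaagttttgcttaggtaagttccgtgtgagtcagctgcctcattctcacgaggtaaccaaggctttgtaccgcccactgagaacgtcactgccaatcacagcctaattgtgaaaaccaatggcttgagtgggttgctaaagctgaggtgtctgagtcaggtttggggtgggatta
Ctss: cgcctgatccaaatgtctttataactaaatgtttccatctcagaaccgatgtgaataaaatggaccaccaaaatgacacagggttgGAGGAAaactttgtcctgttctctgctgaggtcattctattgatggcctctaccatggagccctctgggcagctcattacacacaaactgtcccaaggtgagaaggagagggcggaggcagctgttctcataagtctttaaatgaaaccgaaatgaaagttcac
Trem2: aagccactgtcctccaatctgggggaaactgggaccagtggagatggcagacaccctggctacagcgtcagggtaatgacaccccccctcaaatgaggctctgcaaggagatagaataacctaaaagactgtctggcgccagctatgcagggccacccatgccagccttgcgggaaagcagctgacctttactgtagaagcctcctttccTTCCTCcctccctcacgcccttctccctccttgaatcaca
Cd163: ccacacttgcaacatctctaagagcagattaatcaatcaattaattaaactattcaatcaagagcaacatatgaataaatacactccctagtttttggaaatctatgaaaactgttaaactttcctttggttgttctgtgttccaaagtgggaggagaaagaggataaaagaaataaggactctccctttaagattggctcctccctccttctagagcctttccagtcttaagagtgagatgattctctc
The 6 letters were found 1 time in each of the first 3 windows, with the first letter 225, 164 and 40 bases before the start site, and not in the Cd163 window. Of the 36 members, 28 had a promoter in the RefSeq table, and 14 of these, or 50%, held the letters on either strand in the 250 bases, against 25.9% of the 27025 genes of the table. The 4 windows were picked with the levels known, and the letters did not follow the levels in all members. They were in 10 of the 15 matched members whose 2 highest libraries were AngII+BAI 3 and AngII+BAI 5. Of the other 13, 4 held them (Itgam, F13a1, Pf4 and Marco, which was not ranked), and the difference was not tested. A match is a description of letters and not a binding site.

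In the saline aorta the C1q genes and Lyz2 were the most abundant members beside Cd9, which many cell types express. The median of the 5 Control libraries was 184 FPKM for Lyz2 (lysozyme), 64.5 for C1qa, 54.5 for C1qb and 52.9 for C1qc, the 3 chains of the complement component that tags debris. Medians were 34.7 FPKM for F13a1 (the coagulation factor XIII A chain), 26.0 for Ctss (the lysosomal protease cathepsin S), 15.9 for Mrc1 (the mannose receptor), 15.5 for Cd163 (the haemoglobin scavenger receptor) and 15.5 for Folr2 (folate receptor beta). Trem2, Cx3cr1 and Fcgr1 were near the 1 FPKM that the filter asks for, with medians of 0.618, 0.732 and 1.09 FPKM. The order among the 3 resident genes Mrc1, Cd163 and Folr2 was within the spread of the Control libraries.

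**Figure D1:**
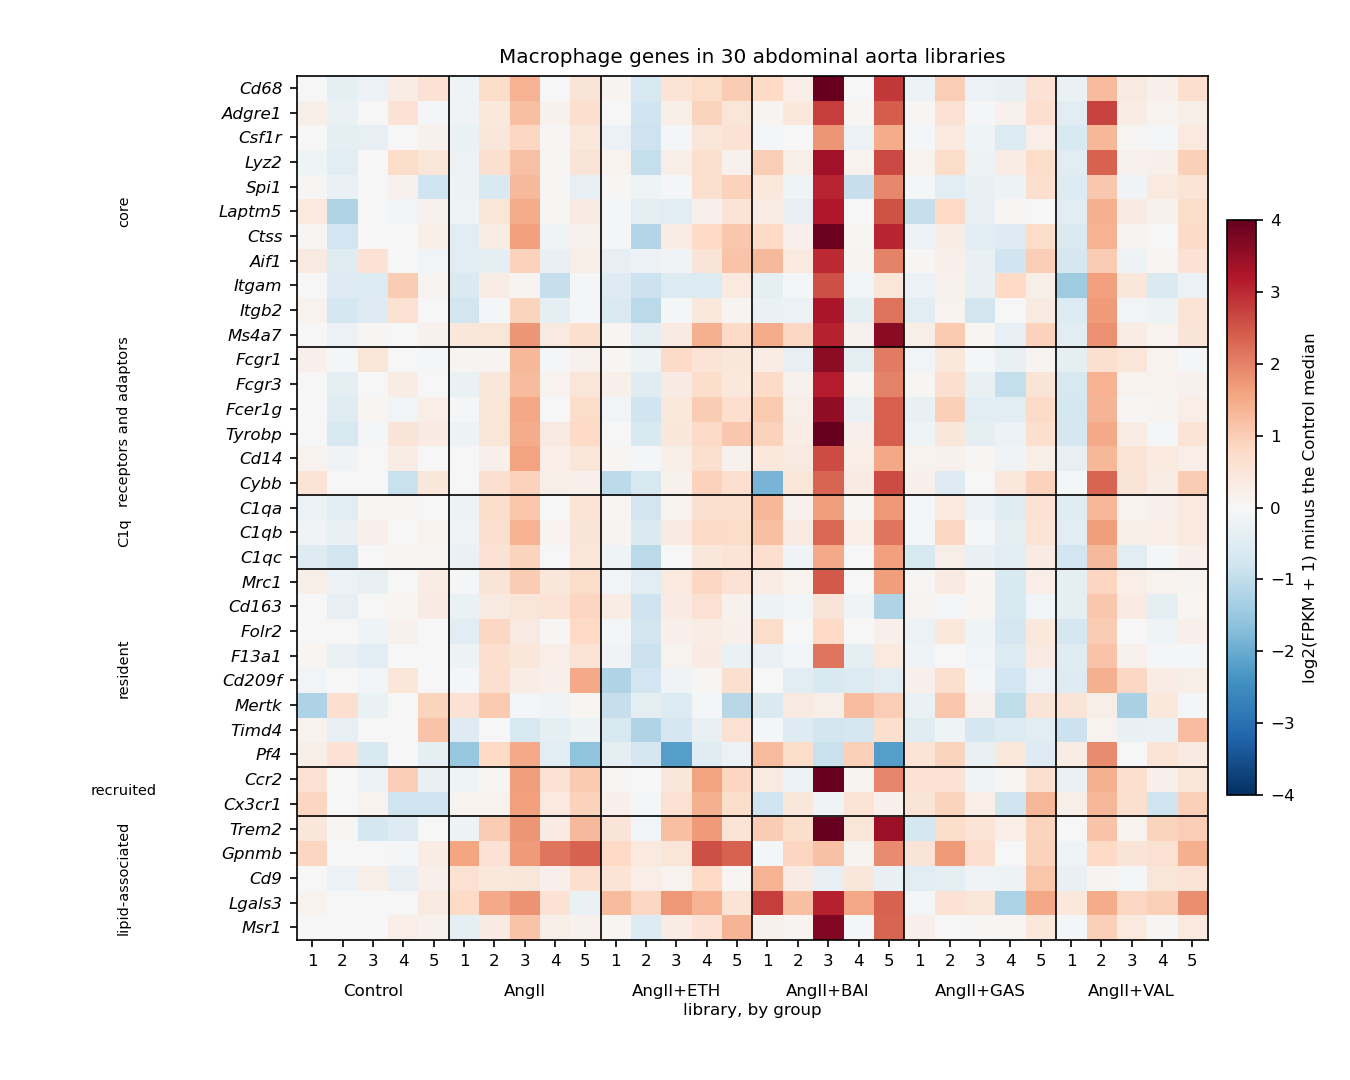
Colour gives the log2(FPKM + 1) of 35 macrophage genes (rows, grouped by role) in 30 libraries (columns, 5 per group) minus the median of the 5 Control libraries; the scale ends at 4. AngII+BAI 3 and AngII+BAI 5 are high in nearly all core and receptor genes but not in most resident genes, and AngII+VAL 2 and AngII 3 are moderately high.

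AngII was compared with Control to ask whether the infusion changed macrophage genes. No gene of the aorta passed the threshold in this comparison (0 of 13223, 0%, at a limma adjusted p under 0.05). Members leaned upward: 31 of 35 had a higher mean log2 level in AngII, against 66.6% of all genes tested, and their median log2 fold change was 0.44 against 0.11 for all genes. With trimmed-mean (TMM) scaling, which brings the median of all genes to 0.01, the members' median was 0.32 and 30 of 35 were higher. At an unadjusted p under 0.05 there was 1 member of 35, against 11.2% of all genes. The fit shares 1 estimate of spread among the 6 groups, so AngII+BAI 3 and 5 can widen the SE of every comparison, this one included. Without these libraries 18 genes passed in AngII against Control, and no member did. Unadjusted counts of members without them are not given for this comparison.

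Markers of other cell types were also higher in AngII. All 7 neuron markers had higher means than in Control (median log2 fold change 2.92), as did all 5 Schwann cell markers (1.35) and all 6 fibroblast markers (0.82), and none of these genes passed the threshold. The neuron genes summed to 4.97 to 42.9 FPKM in Control and 2.94 to 714 in AngII, the Schwann genes to 31.9 to 99.1 and 108 to 295, and the fibroblast genes to 1002 to 1439 and 1693 to 5368. The Schwann and fibroblast sums of the groups did not overlap. The neuron genes Th, Dbh, Prph and Snap25 were at 0 in 7, 3, 8 and 1 of the 30 libraries, and the Schwann gene Sox10 in 9. The part of these cell types in the macrophage differences was not tested.

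The 1 member with an unadjusted p under 0.05 in AngII against Control was Gpnmb, a glycoprotein of lysosomes in lipid-laden macrophages. Its 5 Control values were 10.6, 5.32, 5.26, 5.08 and 6.72 FPKM, and its AngII values 17.7, 8.37, 19.8, 26.8 and 31.5. Only AngII 2 was within the Control range. The log2 fold change was 1.45 (SE 0.44, adjusted p = 0.225, n = 5 per group). Trem2, a lipid-sensing receptor that signals through Tyrobp, averaged 0.525 ± 0.48 FPKM in Control and 2.25 ± 1.61 in AngII (SD, n = 5), a log2 difference of 0.99 (SE 0.54, adjusted p = 0.508). Lgals3 (galectin-3) averaged 14.3 ± 1.76 in Control and 28.5 ± 15.1 in AngII, a log2 difference of 0.79 (SE 0.42, adjusted p = 0.498). Cx3cr1, the fractalkine receptor, averaged 0.76 ± 0.885 and 1.97 ± 1.504 FPKM (log2 difference 0.77, SE 0.42, adjusted p = 0.504). The 4 members with the smallest p were thus 3 of the lipid-associated list and Cx3cr1, which is listed here with Ccr2.

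The broad markers were closer to Control. Cd68, a lysosomal glycoprotein of macrophages, was 10.7, 8.10, 8.82, 13.5 and 16.2 FPKM in Control and 9.26, 18.2, 29.8, 10.7 and 15.7 in AngII. The groups overlapped, and AngII 3 was the highest. The log2 difference was 0.44 for Cd68 (SE 0.54, adjusted p = 0.796) and 0.37 for the adhesion receptor Adgre1, known as F4/80 (SE 0.50, adjusted p = 0.817). It was 0.54 for C1qa (SE 0.35, adjusted p = 0.596), 0.53 for Mrc1 (SE 0.36, adjusted p = 0.608) and 0.42 for the chemokine receptor Ccr2 (SE 0.55, adjusted p = 0.807). The 5 AngII libraries differed among themselves: the median member stood at 2.51 times the Control median in AngII 3 and at 0.864 times in AngII 1. The membrane protein gene Ms4a7 was the only member whose AngII and Control ranges did not overlap (1 of 35, against 3.55% of all genes), at 3.12 to 9.83 against 1.68 to 2.60 FPKM, and it did not pass the threshold (adjusted p = 0.604).

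Baicalin with angiotensin II was compared with AngII. The 2 libraries of the series with the highest mean of the members, AngII+BAI 3 and AngII+BAI 5, were among its 5. Over all genes, 44 passed the threshold against AngII (0.333% of 13223) and no member was among them. Of the 35 members, 30 had a higher mean log2 level than in AngII, against 48.7% of all genes, and the median log2 fold change was 0.70 against -0.01. At an unadjusted p under 0.05 there were 6 members, 4 higher and 2 lower, against 14.6% of all genes. Without AngII+BAI 3 and AngII+BAI 5, 11 of 35 members were higher than in AngII and the median was -0.16.

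Core genes showed the split between libraries. Cd68 in the 5 AngII+BAI libraries was 19.3, 13.05, 196, 10.5 and 82.0 FPKM, while no library of another group exceeded 29.8. AngII+BAI 1, 2 and 4 were within the range of the AngII group. Ctss in AngII+BAI was 45.5, 30.01, 406, 26.7 and 225 FPKM, against 18.9, 32.3, 84.0, 23.5 and 29.5 in AngII. The log2 difference from AngII was 1.10 for Cd68 (SE 0.54, adjusted p = 0.346) and 1.29 for Ctss (SE 0.58, adjusted p = 0.306). Without AngII+BAI 3 and 5 these became -0.14 for Cd68 (adjusted p = 0.871) and 0.03 for Ctss (adjusted p = 0.981). Aif1 (allograft inflammatory factor 1, a calcium-binding protein of macrophages) was 6.57, 3.06, 23.5, 2.36 and 11.3 FPKM, against 1.25 to 4.85 in AngII (log2 difference 1.35, SE 0.44, adjusted p = 0.158), and its difference without AngII+BAI 3 and 5 was 0.60 (adjusted p = 0.441). Adgre1 was 7.11, 9.07, 50.1, 6.91 and 38.9 FPKM, with AngII+BAI 3 and 5 above the 5.75 to 16.1 of AngII (log2 difference 0.70, SE 0.50, adjusted p = 0.515), and the difference without them was -0.25 (adjusted p = 0.794).

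All 11 core genes and all 6 receptors and adaptors were more than 2-fold over the Control median in AngII+BAI 3, and 10 of 11 and 6 of 6 were in AngII+BAI 5. Of all genes, 18.1% reached that fold in AngII+BAI 3 and 16.7% did so in AngII+BAI 5. In AngII+BAI 3 the median core gene was 10.3 times the Control median, and the factor was 10.8 for the receptors and adaptors. The corresponding medians in AngII+BAI 5 were 6.03 and 5.47. Tyrobp, the adaptor that passes signals from Trem2 and other receptors, was 365 and 110 FPKM in them and 12.1 to 58.9 elsewhere. The 2 libraries were the 2 highest of the 30 for 21 of 35 members, or 60%, against 10% of all genes tested.

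The C1q genes were also high in both libraries, at lower multiples of Control. C1qa was 163, 73.4, 209, 66.0 and 218 FPKM in AngII+BAI and 55.3, 106, 141, 65.1 and 94.8 in AngII, and AngII+VAL 2 also reached 163. The log2 difference of C1qa was 0.56 (SE 0.35, adjusted p = 0.458), and 0.08 without AngII+BAI 3 and 5 (adjusted p = 0.923). The median C1q gene was 3.25 times the Control median in AngII+BAI 3 and 3.38 times in AngII+BAI 5. C1qb to C1qa was 1.295 and 1.12 in these 2 libraries and 0.773 to 1.17 in the other 28, so AngII+BAI 3 was just above the rest. C1qc to C1qa was 0.739 and 0.761, within the 0.519 to 0.864 of the other 28.

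Resident markers were divided. The median of the 8 resident genes was 1.32 times the Control median in AngII+BAI 3 and 1.25 times in AngII+BAI 5, with 3 of 8 below the Control median in each, so most of the 8 were not shifted as the core genes were. Mrc1 stood at 5.77 and 3.34 times the Control median in them, and F13a1 at 4.55 times in AngII+BAI 3 and 1.33 times in AngII+BAI 5. Of 12 other resident markers outside the members, the mean log2(FPKM + 1) was 4.30 in AngII+BAI 3, the highest of the 30 libraries, and 4.11 in AngII+BAI 5, against 2.84 to 3.63 in Control and 3.38 to 4.21 in AngII. Cd163 was 13.4, 14.3, 22.3, 13.8 and 6.18 FPKM in AngII+BAI, and 6.18 was the lowest value of the 30 libraries. On its protein-coding transcripts alone, which hold 32.1% of the Cd163 FPKM, AngII+BAI 5 was not the lowest: the 5 libraries were at 1.297, 3.86, 4.38, 3.72 and 4.22 FPKM, and AngII libraries at 4.18 to 8.50. Cd163 in AngII was 12.8, 19.9, 21.8, 23.2 and 28.6 FPKM, so the groups overlapped (log2 difference -0.62, SE 0.29, adjusted p = 0.325, and -0.75, adjusted p = 0.306, on protein-coding transcripts). Cd209f, a C-type lectin of resident macrophages, was 4.18, 2.84, 2.35, 2.51 and 2.72 FPKM in AngII+BAI and 3.86 to 13.5 in AngII (log2 difference -0.91, SE 0.34, adjusted p = 0.209). The direction of Cd209f turned on protein-coding transcripts alone, which hold 25.9% of its FPKM: these were 3.40, 1.24, 1.53, 0.15 and 0.396 FPKM in AngII+BAI and 0.0749, 0.559, 1.86, 2.73 and 0.558 in AngII (log2 difference 0.10, adjusted p = 0.914). With all transcripts of Cd209f, AngII+BAI 3 and 5 were close to the rest of their group, and without them the differences were -0.54 for Cd163 (adjusted p = 0.304) and -0.83 for Cd209f (adjusted p = 0.247). Mrc1 was at 19.8, 17.4, 91.5, 15.7 and 53.0 FPKM against 15.0 to 33.2 in AngII (log2 difference 0.38, SE 0.36, adjusted p = 0.628). Mrc1 was higher in AngII+BAI 3 and 5 than in any other library, and without them its difference from AngII was -0.39 (adjusted p = 0.444). F13a1 reached 158 FPKM in AngII+BAI 3 and 46.2 in AngII+BAI 5.

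The remaining resident genes stood between 0.146 and 2.11 times the Control median in those libraries. Folr2 was 27.5 and 18.1 FPKM, Timd4 (a receptor for dying cells) 1.14 and 4.66, Mertk (an engulfment receptor kinase) 10.3 and 18.1, and the chemokine Pf4, which platelets also carry, 5.27 and 1.56. The Control medians of these genes were 15.5, 2.59, 8.59 and 10.7 FPKM. Folr2 in AngII+BAI 3 and Mertk in AngII+BAI 5 exceeded the highest Control values of 17.4 and 16.6 FPKM, and Pf4 alone of these was below all 5 Control libraries in both.

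**Figure D2:**
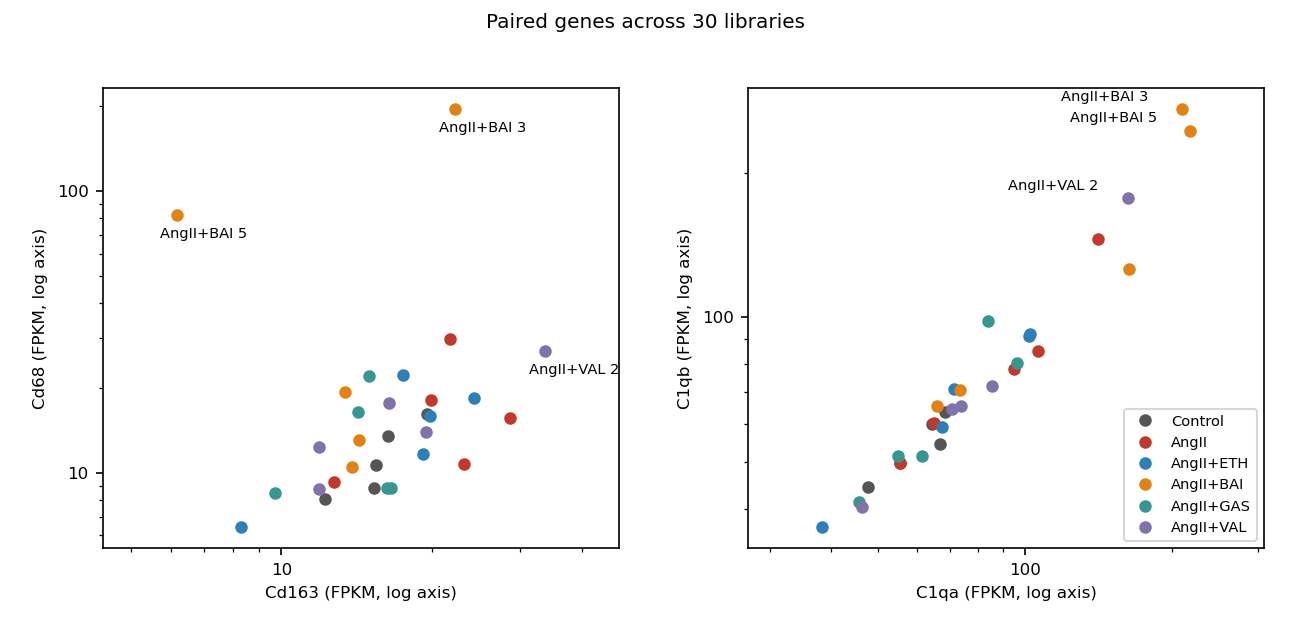
FPKM of Cd68 against Cd163 (left) and of C1qb against C1qa (right) in 30 libraries, on log axes, with points coloured by group. AngII+BAI 3 and AngII+BAI 5 leave the cloud of Cd68 and Cd163 (ratios 8.77 and 13.3 against 0.461 to 1.48 in the other 28 libraries) and for the C1q genes lie at ratios of 1.295 and 1.12, of which only that of AngII+BAI 3 is above the 0.773 to 1.17 of the others.

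Ratios of 2 genes within a library were chosen after their values were seen and are descriptions. Cd68 to Cd163 was 8.77 and 13.3 in AngII+BAI 3 and AngII+BAI 5, and 0.461 to 1.48 in the other 28 libraries. Mrc1 to Cd163 was 4.10 and 8.59, against 0.768 to 1.52. AngII+VAL 2, whose members were also high, had a Cd68 to Cd163 ratio of 0.803. Most of the Cd163 level was in a retained-intron transcript: protein-coding transcripts held 32.1% of its summed FPKM, and 25.9% for Cd209f, whereas the share was 82.9% or more for the other members. On protein-coding transcripts alone, Cd68 to Cd163 was 44.7 and 19.4 in these 2 libraries against 0.902 to 14.9 in the other 28, and Mrc1 to Cd163 was 20.6 and 12.1 against 1.67 to 13.6.

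Receptors of recruited monocytes and lipid-associated genes were divided. Ccr2 was 2.42, 1.29, 40.5, 1.92 and 9.41 FPKM in AngII+BAI and 1.38, 1.78, 7.54, 3.07 and 4.54 in AngII. Only AngII+BAI 3 and 5 exceeded the AngII range (log2 difference 0.59, SE 0.55, adjusted p = 0.62), and without them the difference was -0.56 (adjusted p = 0.464). Cx3cr1 was 0.574 and 1.01 FPKM in the same libraries, below the AngII 3 value of 4.46. Trem2 was 2.29, 1.66, 27.4, 1.27 and 16.3 FPKM, against 0.415, 2.27, 4.49, 1.05 and 3.02 in AngII (log2 difference 1.11, SE 0.54, adjusted p = 0.346). The Trem2 difference was -0.10 without AngII+BAI 3 and 5 (adjusted p = 0.916). Msr1, the class A scavenger receptor, was 36.005 and 13.2 FPKM in them and at most 6.31 elsewhere. Gpnmb, at 13.3 and 22.6 FPKM, did not exceed the highest AngII value of 31.5. Cd9 was 139 and 144 FPKM in AngII+BAI 3 and 5, or 0.795 and 0.821 times the Control median.

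Lgals3 was high in AngII+BAI 1 as well. Its values were 96.1, 31.8, 118, 40.5 and 72.0 FPKM, against 23.8, 39.5, 48.2, 20.5 and 10.8 in AngII. AngII+BAI 1, 3 and 5 were above the AngII range, as they were for C1qa and Aif1. The log2 difference was 1.31 (SE 0.42, adjusted p = 0.156), and 0.96 without AngII+BAI 3 and 5 (adjusted p = 0.262). Galectin-3 is also made by cells other than macrophages.

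**Figure D3:**
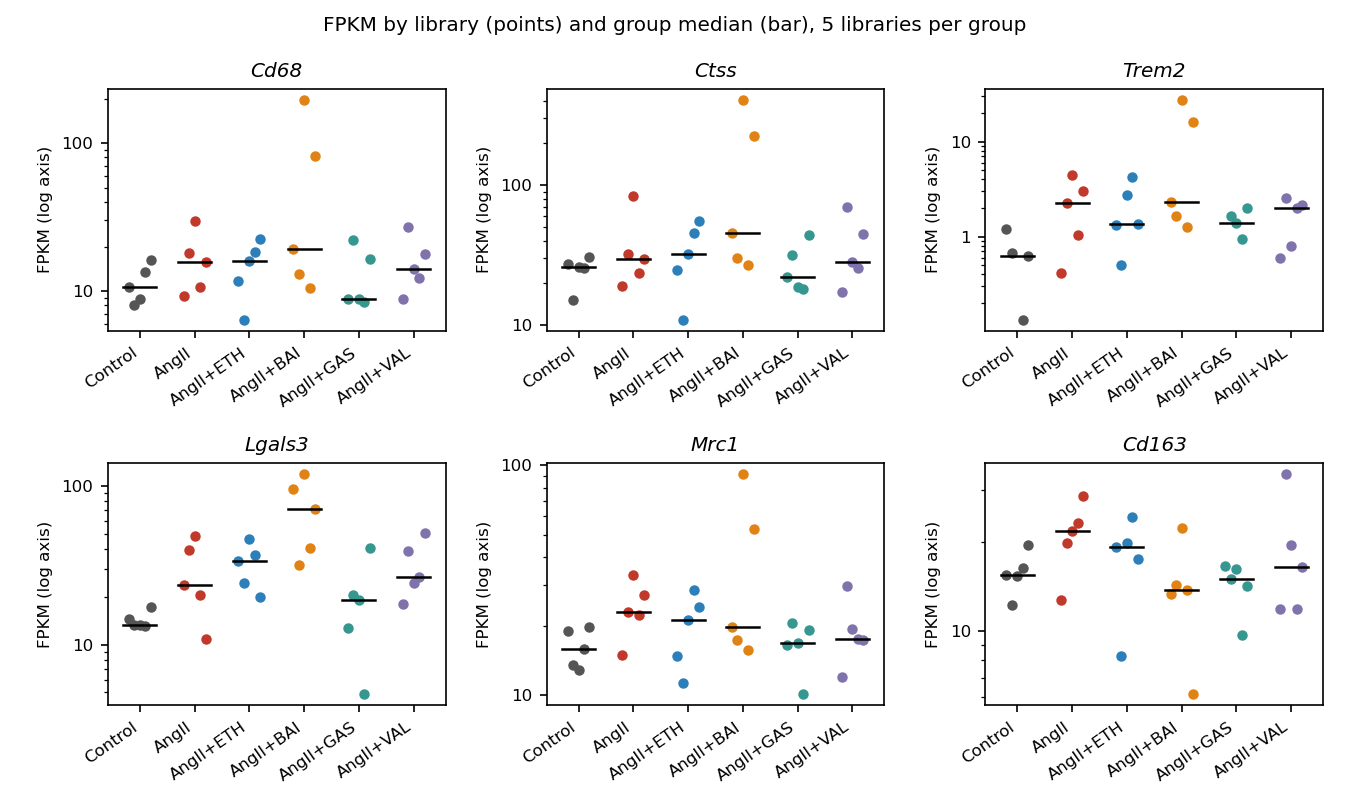
FPKM of Cd68, Ctss, Trem2, Lgals3, Mrc1 and Cd163 in each library (points, log axis; a value of 0 cannot be drawn, which leaves out Trem2 in Control 3 and AngII+GAS 1) with the group median (bar), 5 libraries per group. In AngII+BAI, 2 points of Cd68, Ctss, Trem2 and Mrc1 lie above all other libraries, while Lgals3 is raised in more of the group and Cd163 is not raised.

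Against Control, AngII+BAI gave the only members past the threshold. Lgals3 and Trem2 passed, 2 of 35, where 1.44% of all genes passed in either direction (190 of 13223) and 1.1% as higher (146). Lgals3 was 14.6, 13.2, 13.2, 13.2 and 17.2 FPKM in Control, and the lowest AngII+BAI value was 31.8, so the groups did not overlap (3 of 35 members, against 3.22% of all genes). It rose by 2.09 on the log2 scale (SE 0.42, adjusted p = 0.0278). Trem2 was 1.21, 0.667, 0, 0.134 and 0.618 FPKM in Control and at least 1.27 in AngII+BAI, and rose by 2.10 (SE 0.54, adjusted p = 0.0489). The other member without overlap was C1qb, at 44.4 to 63.5 and 65.5 to 271 FPKM (adjusted p = 0.086). In all, 32 of 35 members were higher, against 59.3% of all genes, and 19 had an unadjusted p under 0.05, all higher, against 19% of all genes in either direction and 13.7% as higher. The median log2 fold change of members was 1.01 against 0.09 for all genes.

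Both calls depended on single libraries. Lgals3 was past the threshold without Control 5, AngII+BAI 2 or AngII+BAI 4. Its adjusted p was 0.0812, 0.0737, 0.0561 and 0.07 without Control 1, 2, 3 and 4, and 0.0591, 0.066 and 0.0667 without AngII+BAI 1, 3 and 5. Trem2 held without AngII+BAI 2 or AngII+BAI 4. Its adjusted p was 0.0847, 0.104, 0.103, 0.118 and 0.0643 without Control 1 to 5, and 0.0663, 0.149 and 0.115 without AngII+BAI 1, 3 and 5. Over the other settings tried, the adjusted p ran from 0.0151 to 0.133 for Lgals3 (past the threshold in 7 of 10) and from 0.0318 to 0.345 for Trem2 (4 of 9). With both AngII+BAI 3 and AngII+BAI 5 left out, no member passed, 23 of 35 were higher and the median was 0.24. Lgals3 was then higher by 1.74 (adjusted p = 0.112) and Trem2 by 0.89 (adjusted p = 0.298). Without AngII+BAI 2, 12 members passed, and without AngII+BAI 4, 11 did. A moderated F-test over the 6 groups called no gene (0%), and the smallest adjusted p of a member was 0.115, for Lgals3, while 15.8% of all genes had an unadjusted p under 0.05.

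**Figure D4:**
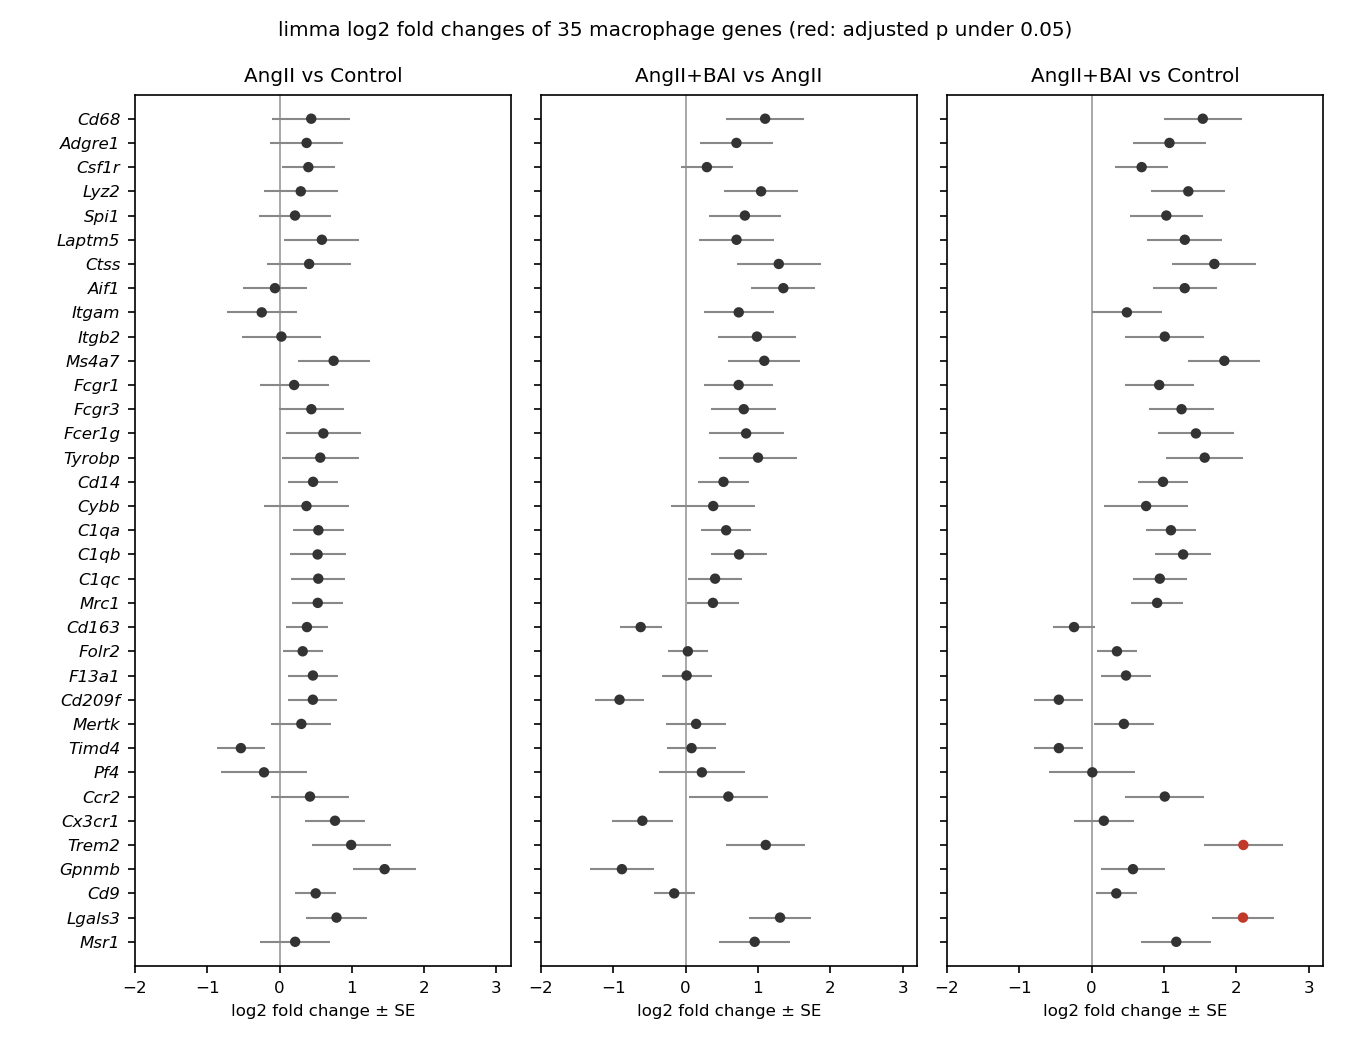
limma log2 fold changes (points) with standard errors (lines) of 35 members in AngII against Control, AngII+BAI against AngII and AngII+BAI against Control, red where the adjusted p is under 0.05. Only Trem2 and Lgals3 in the last comparison are red, and Cd163 and Cd209f lie below 0 in the comparisons with AngII+BAI, though Cd209f is at 0.10 against AngII on protein-coding transcripts.

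Ethoxysanguinarine was compared with AngII at matched infusion and time. No gene passed (0 of 13223, 0%), and 451 genes, or 3.41%, had an unadjusted p under 0.05. Among members, 4 of 35 were higher and 31 lower, against 31% of all genes higher, and the median log2 fold change was -0.27 against -0.09. With quantile and TMM scaling the members' median was -0.18 in each, with 9 and 6 of 35 higher. The 4 members with the smallest p were resident genes, and all had lower means. Cd209f was 1.21, 1.99, 3.65, 4.22 and 6.87 FPKM in AngII+ETH against 3.86, 6.89, 5.31, 4.89 and 13.5 in AngII (log2 difference -0.81, SE 0.34, unadjusted p = 0.024, adjusted p = 0.994). Mertk was 4.04, 6.50, 5.53, 8.02 and 3.48 FPKM against 13.4, 18.8, 8.27, 7.69 and 9.20 (log2 difference -0.91, SE 0.42, unadjusted p = 0.0378, adjusted p = 0.994). The 2 groups overlapped for both genes. The differences were -0.51 for F13a1 and -0.33 for Folr2, both at an adjusted p of 0.994. They were -0.14 for Cd68, -0.30 for Adgre1, -0.28 for C1qa, -0.29 for Mrc1, -0.05 for Ccr2 and -0.07 for Trem2, all at adjusted p of 0.994 or more. Those of Ccr2 and Trem2 had the other sign with quantile scaling (both 0.07), and those of Cd68 also depended on single libraries.

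Gastrodin was compared with AngII in the same way. Over all genes 2 passed (0.0151%), neither a member, and 13.7% had an unadjusted p under 0.05. Members were lower in 32 of 35 cases, against 26.3% of all genes higher, and their median log2 fold change was -0.35 against -0.17 for all genes. With TMM scaling the medians were -0.18 and -0.02, and 7 of 35 members were higher. The neuron, Schwann and fibroblast markers were lower too, in 7 of 7, 5 of 5 and 6 of 6 cases (medians -2.89, -1.50 and -0.65, none past the threshold), with sums of 2.57 to 64.3, 28.7 to 125 and 1096 to 2098 FPKM in AngII+GAS, and their part was not tested. Gpnmb was 8.07, 19.5, 9.07, 5.19 and 11.03 FPKM in AngII+GAS against 17.7, 8.37, 19.8, 26.8 and 31.5 in AngII (log2 difference -0.91, SE 0.44, unadjusted p = 0.0474, adjusted p = 0.359). Only AngII+GAS 2 exceeded 11.03 FPKM, while 4 AngII libraries were at 17.7 or more. The differences were -0.51 for Cd163 (SE 0.29, adjusted p = 0.418), -0.49 for the tetraspanin gene Cd9 (SE 0.28, adjusted p = 0.426) and -0.57 for Cd209f (SE 0.34, adjusted p = 0.444). On protein-coding transcripts those of Cd163 and Cd209f were -0.25 (adjusted p = 0.738) and 0.05 (adjusted p = 0.963), the latter with the other sign. They were -0.33 for Cd68, -0.40 for C1qa, -0.50 for Mrc1, -0.30 for Ccr2 and -0.50 for Trem2, with adjusted p of 0.515 to 0.82. Adgre1 differed by -0.18 (adjusted p = 0.889), or by 0.01 with quantile scaling.

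Valsartan was compared with AngII as the labelled receptor blocker. No gene passed (0%), and 10.8% had an unadjusted p under 0.05. Of the members, 13 of 35 were higher, against 30.6% of all genes, with a median log2 fold change of -0.09 against -0.12, and the count was 19 with TMM and 18 with quantile scaling, where the medians were 0.05 and 0.01. All 7 neuron, 5 Schwann and 6 fibroblast markers had lower means than in AngII here as well (medians -2.20, -1.25 and -0.71, none past the threshold). The sum of 5 skeletal muscle genes went the other way, at 501 to 2772 FPKM in AngII+VAL and 3.82 to 51.3 in AngII, without overlap. The part of these tissues in the macrophage differences was not tested. Gpnmb was 4.56, 10.1, 8.04, 8.66 and 15.97 FPKM in AngII+VAL (log2 difference -1.04, SE 0.44, unadjusted p = 0.026, adjusted p = 0.381), and 4 AngII libraries lay above all 5 of these values. Pf4 differed by 0.86 (SE 0.60, adjusted p = 0.617), Cd9 by -0.32 (SE 0.28, adjusted p = 0.708) and Timd4 by 0.34 (SE 0.34, adjusted p = 0.748). The differences were -0.04 for Cd68, -0.12 for C1qa, -0.33 for Mrc1, -0.14 for Ccr2 and -0.22 for Trem2, with adjusted p of 0.765 to 0.988. Those of Cd68 and Ccr2 had the other sign with quantile scaling (0.08 and 0.01). Adgre1 was 4.46, 47.4, 8.17, 7.16 and 7.72 FPKM, and AngII+VAL 2 alone exceeded the AngII range. Its log2 difference was 0.12 (adjusted p = 0.956), and -0.41 without that library (adjusted p = 0.791).

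AngII+VAL 2 was high in macrophage genes of every role. Its median member was 2.68 times the Control median, 30 of 35 members exceeded 2-fold (7.06% of all genes did), none was under the Control median, and the median of the resident genes was 2.13. In AngII 3, the median was 2.51 overall and 1.34 for the resident genes, with 24 of 35 members over 2-fold (12.1% of all genes). Lyz2 reached 940 FPKM in AngII+VAL 2 and 415 in AngII 3, against 138 to 306 in Control. The B and plasma cell sum was 2631 FPKM in AngII+VAL 2, the highest of the 30 libraries.

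The remaining comparisons with Control gave no member past the threshold. For AngII+ETH, 0% of all genes passed, 5.18% had an unadjusted p under 0.05, and 25 of 35 members were higher, against 53.2% of all genes, with a median of 0.20. For AngII+GAS, 0.00756% of genes passed, 3.7% had such an unadjusted p, and 28 members were higher, against 39.2%, with a median of 0.08. For AngII+VAL, 0% passed, 3.84% had such an unadjusted p, and 32 members were higher, against 48.9%, with a median of 0.37. The AngII-infused groups share the Control libraries in these comparisons. Lgals3 ranges did not overlap those of Control in AngII+ETH (19.8 to 46.0 FPKM) or in AngII+VAL (17.9 to 50.3 FPKM), against 1.99% and 1.61% of all genes without overlap, with adjusted p of 0.956 and 1.

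Resident members were set against recruited and lipid-associated members, called inflammatory here, within each library. The contrast was the mean log2(FPKM + 1) of the 8 resident genes minus that of 7 genes, the recruited pair Ccr2 and Cx3cr1 and the lipid-associated Trem2, Gpnmb, Cd9, Lgals3 and Msr1. It is a description with no test. Cells other than macrophages also express Cd9 and Lgals3, so the contrast does not measure macrophage states alone. The 7 genes did not move as 1: Cx3cr1 and Cd9 were at 0.785 and 0.795 times the Control median in AngII+BAI 3. Control libraries lay at 0.41, 0.97, 0.75, 1.07 and 1.21, and AngII libraries at 0.26, 0.95, -0.11, 0.34 and 0.37. AngII+ETH libraries were lower still, at 0.02, 0.07, -0.09, -0.36 and 0.07, so that none reached the lowest Control. AngII+BAI libraries lay at 0.38, 0.43, -0.82, 0.52 and -0.77, with AngII+BAI 3 and 5 the 2 lowest of the 30. The values were 0.80, 0.73, 0.54, 0.64 and -0.03 in AngII+GAS and 0.64, 0.85, 0.47, 0.63 and 0.23 in AngII+VAL. Group medians were 0.97 in Control, 0.34 in AngII, 0.02 in AngII+ETH, 0.38 in AngII+BAI, 0.64 in AngII+GAS and 0.63 in AngII+VAL. On protein-coding transcripts alone the medians were 0.60, -0.20, -0.47, 0.00155, 0.29 and 0.25 in the same order, and AngII+BAI 3 and AngII+BAI 5 lay at -1.15 and -1.04. With all transcripts, the resident mean was 3.30 to 3.82 in Control, 3.23 to 4.15 in AngII and 2.80 to 3.70 in AngII+ETH. The mean of the other 7 genes was 2.55 to 3.04, 2.96 to 4.08 and 2.74 to 4.06. In AngII+BAI 3 and 5 the resident mean was 4.03 and 3.55, and that of the other 7 genes 4.85 and 4.32.

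**Figure D5:**
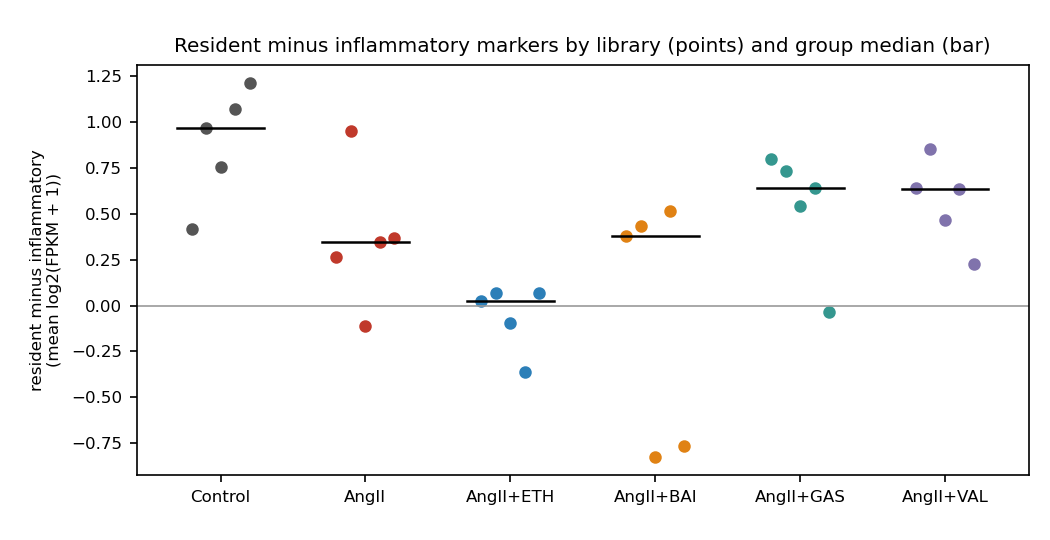
Mean log2(FPKM + 1) of 8 resident genes minus that of 7 recruited and lipid-associated genes, by library (points) and group median (bar). All AngII+ETH libraries lie below the lowest Control at 0.41, and 2 AngII+BAI libraries lie at -0.82 and -0.77.

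Genes outside the members were read from 4 further lists, beside shares of all genes with a higher mean of 66.6% in AngII against Control (median log2 fold change 0.11) and 48.7% in AngII+BAI against AngII (median -0.01). Of 12 other markers of resident macrophages, all 12 had higher means in AngII than in Control, none passed, and the median log2 fold change was 0.53. The lectin genes Cd209d (0.93, adjusted p = 0.293) and Cd209g (0.76, adjusted p = 0.319) had the smallest p. In AngII+BAI against AngII, 7 of 12 were higher and Cd209g fell, the only gene of the list past the threshold, where 0.333% of all genes passed. Cd209g was 1.58, 0.701, 1.05, 0.77 and 1.12 FPKM in AngII+BAI against 2.29, 4.13, 4.49, 4.39 and 6.85 in AngII, without overlap (log2 fold change -1.37, SE 0.29, adjusted p = 0.0367). Low levels of Cd209g were not particular to AngII+BAI. It ran from 1.31 to 2.96 FPKM in Control, 1.09 to 2.84 in AngII+ETH, 0.784 to 4.56 in AngII+GAS and 1.27 to 5.19 in AngII+VAL. Cd209d differed by -1.19 (SE 0.35, adjusted p = 0.123). All 5 AngII+BAI libraries were below every AngII library in Cd209g, and AngII+BAI 3 and 5 were not apart from the other 3. The call was lost in 4 of 10 fits that left out 1 library (adjusted p = 0.0622 without AngII 4, 0.135 without AngII 5, 0.0759 without AngII+BAI 3 and 0.053 without AngII+BAI 4), and the log2 fold change was -1.40 without AngII+BAI 3 and 5 (adjusted p = 0.0521). Cd209g was past the threshold in 5 of 9 other settings, and missed it with quantile scaling (adjusted p = 0.0609), array weights (0.0899) and a fit of the 2 groups alone (0.42) besides.

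Of 16 inflammatory genes outside the members, 10 were tested. In AngII+BAI against AngII 9 of 10 were higher, none past the threshold, with a median of 0.81. Spp1 (osteopontin) was 60.2, 25.9, 602, 19.4 and 290 FPKM in AngII+BAI and 4.30, 8.05, 147, 5.19 and 9.34 in AngII (log2 difference 2.73, SE 0.94, adjusted p = 0.178). Against Control Spp1 rose by 4.66 (SE 0.94, adjusted p = 0.0278). Without AngII+BAI 3 and 5 the Spp1 difference was 3.18 (adjusted p = 0.134), and it was past the threshold in 4 of 10 fits with 1 library left out, with adjusted p up to 0.0819. Spp1 missed it without any 1 of Control 1 to 4, AngII+BAI 3 or AngII+BAI 5, and was past it in 7 of 10 other settings (adjusted p up to 0.334). The AngII+BAI 3 value of Arg1 (arginase 1) was 385 FPKM, the AngII+BAI 5 value 30.5, with at most 7.69 in the other libraries (log2 difference from AngII 1.92, SE 0.95, adjusted p = 0.349). In AngII against Control, 9 of 10 were higher with none past the threshold, led by Spp1 (1.93, adjusted p = 0.447) and Plac8 (0.64, adjusted p = 0.651).

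Of 13 genes for macrophage growth factors, chemokines and other ligands, 12 were tested. All 12 had higher means in AngII than in Control, none past the threshold, with Gas6, the Mertk ligand (0.57, adjusted p = 0.337), and Cx3cl1, the Cx3cr1 ligand (0.52, adjusted p = 0.456), at the smallest p. In AngII+BAI against AngII 9 of 12 were higher, none past the threshold, with Csf1, the growth factor of macrophages, at 23.9 ± 3.58 against 18.4 ± 4.02 FPKM (SD, n = 5; log2 difference 0.38, SE 0.19, adjusted p = 0.358). Ccl2 stood at 72.2 FPKM in AngII+BAI 3, 9.07 in AngII+BAI 5, and 0 to 10.4 in the other libraries (log2 difference 1.38, SE 0.72, adjusted p = 0.374). Of 16 lysosomal and phagocytic genes, 15 were tested, 12 were higher in AngII+BAI than in AngII and none passed. The cathepsin genes Ctsd (0.51, adjusted p = 0.186) and Ctsz (0.50, adjusted p = 0.195) had the smallest p. Against Control, where 1.44% of all genes passed, Ctsz rose by 0.71 (SE 0.18, adjusted p = 0.0474). The groups overlapped, with Ctsz at 110 FPKM in Control 5 and at 109 and 105 in AngII+BAI 2 and AngII+BAI 4. The Ctsz call was kept in 3 of 10 fits with 1 library left out. These were the fits without Control 5, AngII+BAI 2 or AngII+BAI 4, and the adjusted p of Ctsz reached 0.129 in the others. Of 10 other settings Ctsz kept the call in 4 and lost it without the filter (adjusted p = 0.0508), with quantile (0.0926) or TMM scaling (0.059), with array weights (0.347), in a fit of the 2 groups alone (0.338) and without AngII+BAI 3 and 5 (0.166). In AngII against Control 13 of 15 were higher, led by Ctsl (0.60, adjusted p = 0.254) and Grn (0.53, adjusted p = 0.352).

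Other cell types moved with the same libraries, but not all of them alike in both. In AngII+BAI 3, the neutrophil genes S100a8 and S100a9 were 300 and 141 FPKM, against at most 14.8 and 17.6 in the other libraries, and 4 of 8 neutrophil markers could be summed. In AngII+BAI 5 they were 8.05 and 10.1. The 6 of 7 B and plasma cell genes summed to 3.67 to 1039 FPKM in AngII+BAI and to 10.7 to 123 in Control. The 9 of 10 dendritic cell and MHC class II genes summed to 1094 and 1422 FPKM in AngII+BAI 3 and AngII+BAI 5, and to 190 to 902 in the other libraries. The smooth muscle gene Myh11 was 69.0 and 155 FPKM in those 2 libraries and 293 to 861 in the others. The 6 fibroblast genes summed to 1495 FPKM in AngII+BAI 3 and to 8613 in AngII+BAI 5, the highest of the 30 libraries. Skeletal muscle genes summed to 2578 FPKM in AngII+BAI 3 and to 186 in AngII+BAI 5. The part of these differences in the macrophage results was not tested. Without the 2 libraries no member was past the threshold in either comparison of AngII+BAI.

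The 10 genes outside all lists whose pattern was most like the mean log2(FPKM + 1) of the 35 members were Cd300c2, Pld4, Hcls1, Clec4a3, Tifa, Ccl9, Clec12a, Ctsc, Gpr65 and Otulinl. Spearman's rho over the 30 libraries ran from 0.944 for Cd300c2 to 0.909 for Otulinl, as a description, since the libraries share groups and 2 of them are far from the rest. Cd300c2 was 33.7 and 14.9 FPKM in AngII+BAI 3 and AngII+BAI 5 and 0.943 at the Control median. Ctsc was 180 and 135 FPKM there and 30.6 at the Control median.

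In the other compounds' comparisons with AngII none of these 4 lists had a gene past the threshold. The counts of higher means were 3 of 12 resident, 3 of 10 inflammatory, 4 of 12 ligand and 5 of 15 lysosomal genes in AngII+ETH. They were 2, 1, 1 and 4 in AngII+GAS, and 3, 2, 1 and 5 in AngII+VAL, in the same order. Of all genes, 31%, 26.3% and 30.6% were higher in the 3 comparisons.

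Marco, a scavenger receptor of marginal zone and alveolar macrophages, could be read in 25 libraries. It was 2.28, 0, 0, 0.414 and 13.5 FPKM in Control and at most 0.458 in AngII. The other high values were 55.8 in AngII+ETH 5, 16.7 and 21.3 in AngII+BAI 3 and AngII+BAI 5, and 19.8 and 11.3 in AngII+VAL 2 and AngII+VAL 5, and no other AngII-infused library exceeded 0.693. The B and plasma cell genes were also high in these libraries, with summed levels of 123 FPKM in Control 5, 777 in AngII+ETH 5, 548 and 1039 in AngII+BAI 3 and AngII+BAI 5, and 2631 and 400 in AngII+VAL 2 and AngII+VAL 5, against 3.67 to 95.8 in the rest, and their part in the Marco values was not tested.

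Several values carry limits of mapping. Reads of Lyz2 and Lyz1, of the Fcgr genes and of the Cd209 cluster can be shared between close paralogs. Exons of Folr2 overlap those of Gm10602 and exons of Csf1r those of Hmgxb3 on the opposite strand, and exons of Itgam overlap those of Gm49368 on the same strand, so levels of Folr2, Csf1r and Itgam are uncertain in libraries that do not mark strand. Transcripts not listed for all groups held at most 20.9% of a member's FPKM in a library (Pf4).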

How the data were processed

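RNA of the abdominal aorta was sequenced after depletion of ribosomal RNA, with a kit that keeps no strand, going by its name in the labels' protocols. The authors deposited FPKM values per transcript; the unit was taken from the values, whose low entries are whole multiples of what 1 read is worth (98.9% to 99.5% within 0.1 read of a whole number in each library). The build was mm10 and limma was used, per the submitters' processing notes; the aligner and quantifier are not given in the sources used here. Transcript lists differed between groups, so a gene's level here is the sum over its GENCODE M21 transcripts that all 6 groups list (27797 transcripts, 14379 genes). The members had 78 listed transcripts, 64 of them in all groups.

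Genes at 1 FPKM or more in at least 5 libraries were fitted as log2(FPKM + 1) with limma 3.58.1 in R 4.3.3 (1 mean per group, 30 libraries, 24 residual degrees of freedom, trend and robust), two-sided, with Benjamini-Hochberg adjustment over 13223 genes and a threshold of 0.05. Fold changes are on that scale and understate those of low genes. On simulated data for AngII against Control with 13223 genes, 59% of log2 changes of 1 and 85% of 2 were recovered, with 3 false calls. The simulated noise was independent between genes, with the same spread in every group. In the data, members moved together in AngII+BAI 3 and 5, and Cd68 had an SD of 3.39 FPKM in Control and 79.2 in AngII+BAI. The shares recovered therefore cannot be read as the power for members. TMM factors were computed on the FPKM columns. Plots were drawn with matplotlib 3.10.9 and tables with pandas 2.3.3 (numpy 2.4.6, Python 3.11.15). Adgre1, Cd68, C1qa, Mrc1, Ccr2, Trem2 and the 4 members with the smallest p were named in each main comparison, with members past the threshold in any. The 2 smallest-p genes of each further list were named in AngII against Control and AngII+BAI against AngII. Members, lists, rules and tests were chosen with earlier results of these data known. Alternatives were other pseudocounts, filters, scalings, weights, transcript sets and libraries left out.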

Additional observations from a re-analysis of the deposited data

Results flagged for a closer look

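In 6 of 120 groups of 5 libraries examined, over 19 members and the contrast of resident and inflammatory genes, 1 library lay far from the other 4 by Dixon's test, and chance gives about 1 in 20. The test weighs the gap to the nearest library, so 2 far libraries in 1 group can hide each other. No AngII+BAI library was flagged, though Cd68 was 196 and 82.0 FPKM in AngII+BAI 3 and 5. Adgre1 was 47.4 FPKM in AngII+VAL 2, above the other 4 of its group. Cd9 was 381 FPKM in AngII+GAS 5 and Cd209f 6.19 FPKM in Control 4, each high for its group. Ctss was 15.0 FPKM in Control 2, Cd163 was 9.70 FPKM in AngII+GAS 4 and Pf4 was 1.55 FPKM in AngII+ETH 3, each low for its group.

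Marco was not part of any fit, and 4 libraries lay above its highest Control value of 13.5 FPKM. They were AngII+ETH 5 at 55.8, AngII+BAI 3 at 16.7, AngII+BAI 5 at 21.3 and AngII+VAL 2 at 19.8 FPKM.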

How the results depend on the processing

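No paired analysis was possible because the labels give no replicate numbers that groups share. The number of members past the threshold stayed at 0 under every alternative run in the 5 main comparisons, and it changed in AngII+BAI against Control, where 2 members passed. That count was 1 with a pseudocount of 0.1, without the filter and with a filter of 5 FPKM, 0 in a fit of the 2 groups alone, with array weights and without AngII+BAI 3 and 5, and 0 to 12 with 1 library left out. Without AngII+BAI 3 and 5, left out after the data were seen, the members' median log2 fold change was -0.16 against AngII and 0.24 against Control. It stayed within the spread between libraries under the other 118 of 120 alternatives run. That spread takes in AngII+BAI 3 and 5, so staying within it does not show that small medians were stable. In AngII+VAL against AngII the median was -0.09, and 0.05 with TMM scaling, which counted as within the spread. At this depth the floor of 3 reads is 0.0186 to 0.0215 FPKM for a 2 kb transcript, under the lowest Control median of a member (0.618 FPKM, Trem2).

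Counts over all genes moved more. Transcripts were listed by group, so setting unlisted ones to 0 puts 0 in all 5 libraries of a group. Calls gained with that setting can therefore reflect the listing itself. AngII against Control gave 0 calls, but 4 without the filter, 64 with array weights, 18 without AngII+BAI 3 and 5, and 0 to 41 with 1 library left out. AngII+BAI against AngII gave 44, but 16 with the 5 FPKM filter, 74 with unlisted transcripts set to 0, 0 in a fit of the 2 groups alone, 0 with array weights, 102 without AngII+BAI 3 and 5, and 0 to 184 with 1 library left out. AngII+GAS against AngII gave 2, but 1 with a pseudocount of 0.1, 1 with the 5 FPKM filter, 0 with quantile scaling, TMM scaling or the 2 groups alone, 8 with unlisted transcripts set to 0, 232 with array weights, and 0 to 61 with 1 library left out. AngII+VAL against AngII gave 0, but 18 with unlisted transcripts set to 0, 19 for the 2 groups alone, and 0 to 1 with 1 library left out. AngII+ETH against AngII gave 0 to 1 with 1 library left out. AngII+BAI against Control gave 190, but 329 with unlisted transcripts set to 0, 5 for the 2 groups alone, 25 with array weights, 33 without AngII+BAI 3 and 5, and 8 to 954 with 1 library left out. With unlisted transcripts set to 0, the 2 groups alone, array weights and without AngII+BAI 3 and 5, the counts against Control were 9, 3, 8 and 1 for AngII+ETH, 5, 3, 8 and 2 for AngII+GAS, and 21, 3, 24 and 2 for AngII+VAL. AngII+VAL gave 6 with quantile scaling, AngII+GAS gave 0 with TMM scaling, and each of the 3 gave 0 to 1 with 1 library left out. The test over 6 groups gave 67 with unlisted transcripts set to 0, 48 with array weights and 10 without AngII+BAI 3 and 5.

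Of 1063 values of single named members, 995 kept their direction and side of the threshold, 23 were no longer past it and 45 changed sign. On protein-coding transcripts of members alone, a setting added after the data were seen, Cd209f was 0.10 in AngII+BAI and 0.0458 in AngII+GAS, each against AngII. In AngII+ETH against AngII, Ccr2 was 0.0709 with quantile and 0.017 with TMM scaling, Trem2 was 0.0697 with quantile scaling and 0.00647 with array weights, and with 1 library left out the ranges were -0.31 to 0.11 for Cd68, -0.31 to 0.21 for Ccr2 and -0.33 to 0.16 for Trem2. In AngII+BAI against AngII, Mrc1 was -0.036 and Ccr2 -0.00352 with array weights. Without AngII+BAI 3 and 5, Mrc1 was -0.39, Ccr2 -0.56, Adgre1 -0.25, Cd68 -0.14 and Trem2 -0.10, and with 1 library left out the ranges were -0.00887 to 0.61 for Mrc1 and -0.0894 to 0.96 for Ccr2. In AngII+GAS against AngII, Adgre1 was 0.0124 with quantile scaling and -0.33 to 0.00623 with 1 library left out. In AngII+VAL against AngII, Cd68 was 0.0759 with quantile scaling, 0.0927 with TMM scaling, 0.0173 with unlisted transcripts set to 0 and 0.13 with array weights, C1qa was 0.0223 with TMM scaling and 0.0654 with array weights, and Ccr2 was 0.00522 with quantile scaling and 0.0904 with array weights. With 1 library left out the ranges were -0.41 to 0.37 for Adgre1, -0.25 to 0.19 for Cd68, -0.37 to 0.0773 for C1qa, -0.37 to 0.12 for Ccr2 and -0.48 to 0.00903 for Trem2. The contrast of resident and inflammatory genes had medians of 1.41 in Control and 0.93 in AngII+VAL with a pseudocount of 0.1. On protein-coding transcripts alone the medians were 0.60 in Control, -0.20 in AngII, -0.47 in AngII+ETH, 0.29 in AngII+GAS and 0.25 in AngII+VAL. The cause of these changes was not tested.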
